A study of Homo sapiens with 12 samples.

Results

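The genes described here are the ZNF genes with moderate expression in A549 cells. They were chosen by symbol (ZNF, a number and at most 1 letter) and by a mean raw estimated count of at least 100 over all 12 libraries. Of 540 ZNF rows among 20323 genes, 262 rows passed, with 260 symbols, since ZNF544 and ZNF816 each stand at 2 identifiers. The other 278 rows lay under the threshold. Because the measured counts chose the members, their overall level is a description. The mean pools treated and untreated libraries of both genotypes and uses no contrast between them.

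A549 is an established human lung adenocarcinoma line, and the series compared its response to high-dose AA, called VitC (vitamin C, ascorbate) in the sample titles, with and without LKB1, the kinase encoded by STK11. The 4 groups of 3 libraries were LKB1-intact cells (genotype WT) pretreated with PBS, LKB1-intact cells with high-dose AA, LKB1-deficient cells (titled con) with PBS, and LKB1-deficient cells with high-dose AA. The labels give no dose or exposure time and do not say how the genotypes were made or whether either is a single clone. Nothing says that the 3 libraries of a group came from separate cultures, so the spread behind the p-values is that of these libraries and may be purely technical.

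ZNF genes encode proteins with C2H2 zinc fingers, small folds around a zinc ion that mostly contact DNA and in some proteins RNA or other proteins. The largest class adds a KRAB domain, which recruits the corepressor TRIM28 and with it the H3K9 methyltransferase SETDB1, and many KRAB proteins silence retroelements. The KRAB class expanded by tandem duplication, much of it on chromosome 19, so that neighbouring members are often close paralogues.

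Library totals ran from 16055534 to 20306129 estimated counts. STK11 stood at 24.5 ± 0.917 CPM (counts scaled to library size, mean ± SD, n = 3) in intact cells under PBS and at 5.79 ± 0.862 in deficient cells under PBS, in the direction of the genotype labels. Of the epithelial markers, KRT8 and KRT18 were abundant, EPCAM was between 4.07 and 7.48 FPKM (fragments scaled to transcript length and depth) and CDH1 and KRT19 were under 0.5 FPKM in every library. The leukocyte marker CD3E was at 0 in all libraries, PTPRC, PECAM1, VWF and COL3A1 were under 0.1 FPKM, and COL1A1 was the only fibroblast marker above that. These 6 markers, mostly COL1A1, summed to 4.20 to 5.50 FPKM in intact PBS and 3.62 to 5.07 in intact AA libraries. The sums were 3.59 to 4.18 in deficient PBS and 2.84 to 5.24 in deficient AA libraries. The 1 of the 6 that was tested was called up under AA in intact cells (log2 change 0.21) and not called in deficient cells (-0.13). The summed epithelial markers ran from 1314 to 1361 FPKM in intact PBS, 2061 to 2128 in intact AA, 1168 to 1277 in deficient PBS and 1169 to 1199 in deficient AA libraries. Their part in the results below was not tested.

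Under AA the ZNF genes fell as a group in both genotypes. The members together took 0.790 ± 0.00283% of all counts (mean ± SD, n = 3) in intact cells under PBS and 0.567 ± 0.0142% under AA. In deficient cells the share was 0.793 ± 0.0115% under PBS and 0.611 ± 0.00836% under AA. The 6 AA libraries did not overlap the 6 PBS libraries in this share. The level of the median member was 18.7 ± 0.424 CPM in intact PBS, 12.3 ± 0.277 in intact AA, 19.1 ± 0.361 in deficient PBS and 11.7 ± 0.266 in deficient AA libraries. In bulk RNA, fewer cells of a kind and less RNA per cell cannot be told apart, and all changes are relative to the library total.

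All 262 members passed the low-count filter and were tested among 12718 genes with edgeR's quasi-likelihood test and Benjamini-Hochberg adjustment over all of them, called at an adjusted p under 0.05. In deficient cells AA raised 38 members and lowered 185, while 39 were not called. Over all tested genes 74.4% were called, 37% up and 37.4% down, against 14.5% and 70.6% of the members. The median log2 change was -0.62 over members and 0.01 over all tested genes. A fall of at least 1 on the log2 scale was called for 77 members, a size that 7.75% of all tested genes reached, and a rise of that size for 2 members, against 6.7% of all genes. In 184 members every AA library lay under every PBS library (37.8% of all genes).

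In intact cells AA raised 22 members and lowered 186, and 54 were not called. Of all tested genes 69.8% were called, 34.5% up and 35.2% down. The median log2 change was -0.60 over members and 0.01 over all tested genes. A fall of at least 1 was called for 65 members, against 5.65% of all tested genes, and a rise of that size for 1, against 4.47%. The rule's threshold bears on these counts, since 28 members averaged under 100 counts in the AA libraries and 22 ZNF rows left out averaged at least 100 in the PBS libraries. The 130 tested ZNF rows under the threshold had medians of -0.63 in deficient and -0.54 in intact cells.

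**Figure D1:**
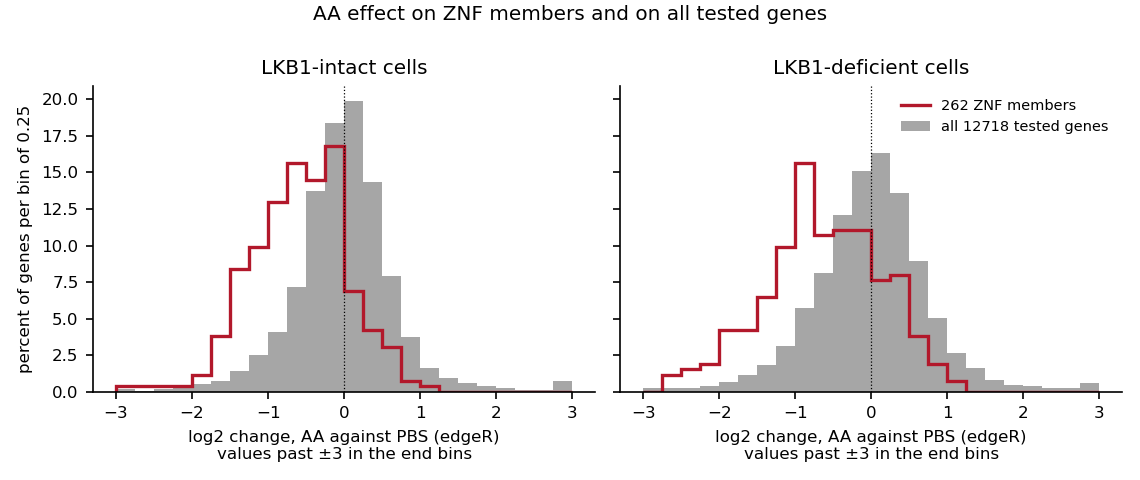
The x axis is the log2 change under AA against PBS and the y axis the percent of genes in each bin of 0.25, in intact (left) and deficient cells (right). Grey bars are all 12718 tested genes and the red outline the 262 ZNF members, whose medians are -0.60 and -0.62 against 0.01 for all genes in both panels.

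The intact and the deficient comparison share no library, and 169 members fell in both of them (27% of all tested genes did). These are 91.4% of the falls in deficient cells and 90.9% of those in intact cells. Rises were shared by 15 members (24.6% of all genes), which are 39.5% of the rises in deficient and 68.2% of those in intact cells. Across the 262 members the log2 changes of both genotypes had a Pearson's r of 0.87 and a Spearman's rho of 0.88, as a description over genes, which are not independent replicates. ZNF146, ZNF302 and ZNF598 were called up in deficient and down in intact cells (2.71% of all genes), and ZNF444, ZNF488 and ZNF75D the other way (3.19%). The adjusted p of 0.046 for ZNF598 in intact cells did not hold under most other settings, as given below.

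**Figure D2:**
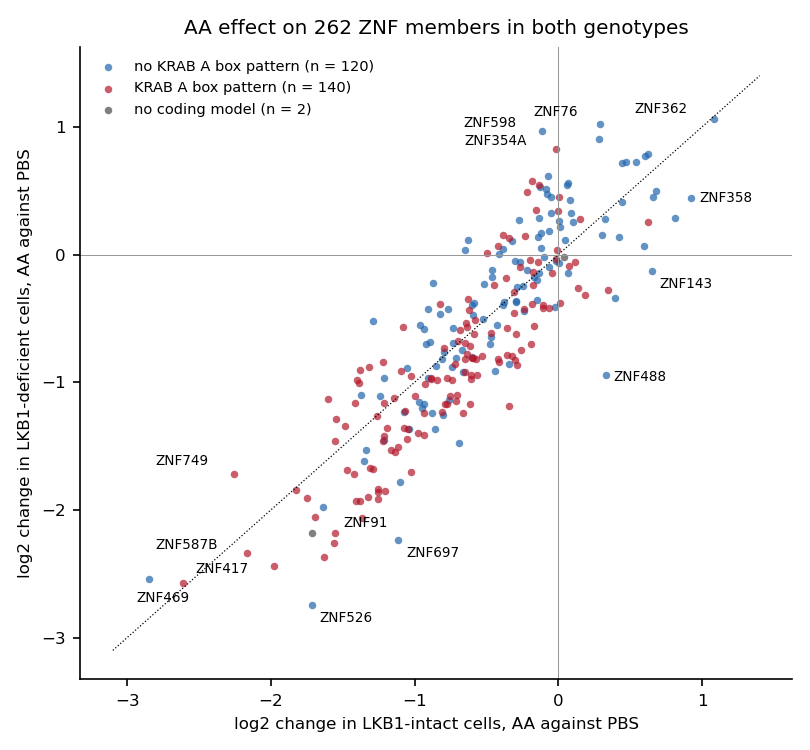
Each point is a member, with its log2 change under AA in intact cells on the x axis and in deficient cells on the y axis. Red marks a KRAB A box pattern in the protein and blue none, and the dotted line marks equal change. Most points lie in the lower left quadrant, where 169 members were called down in both genotypes.

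The deepest falls in deficient cells were those of ZNF526, ZNF417, ZNF469, ZNF891, ZNF234 and ZNF587B. ZNF526 (ENSG00000167625, chromosome 19, 42220271 to 42228201) stood at 18.2, 19.9 and 18.3 CPM in the 3 intact PBS libraries and 5.34, 6.23 and 5.59 in the intact AA libraries. In deficient cells it stood at 19.2, 17.2 and 15.0 CPM under PBS and 2.40, 3.01 and 2.25 under AA. The AA libraries lay under the PBS libraries in both genotypes, and the deficient AA libraries were the lowest of all 12. The log2 change was -2.75 (SE 0.13) in deficient cells (edgeR adjusted p = 4.31e-14) and -1.72 (SE 0.12) in intact cells (edgeR adjusted p = 2.22e-11). The difference between these changes was -1.03 (SE 0.18) (edgeR adjusted p = 8.85e-05).

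ZNF469 (chromosome 16, 88427471 to 88440757), a gene mutated in brittle cornea syndrome, had the deepest fall in intact cells. Its levels were 54.3, 53.6 and 54.5 CPM in intact PBS and 7.90, 7.89 and 6.78 in intact AA libraries. They were 46.5, 42.0 and 44.9 CPM in deficient PBS and 7.67, 7.12 and 8.13 in deficient AA libraries. The PBS libraries were far above the AA libraries, and the AA libraries of both genotypes covered the same range. The log2 change was -2.85 (SE 0.07) in intact and -2.54 (SE 0.08) in deficient cells (edgeR adjusted p = 4.43e-18 and 1.10e-17).

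ZNF891, a KRAB gene on chromosome 12, went from 13.4, 14.2 and 15.3 CPM under PBS to 2.45, 3.12 and 2.36 under AA in deficient cells. In intact cells its libraries were at 12.5, 11.8 and 12.1 CPM under PBS and 2.83, 2.50 and 3.83 under AA. Neither pair of groups overlapped, and the log2 changes were -2.44 (SE 0.15) and -1.98 (SE 0.14). ZNF529, a KRAB gene on chromosome 19, changed by -1.83 (SE 0.14) in intact and -1.85 (SE 0.13) in deficient cells. All 4 of these changes had an edgeR adjusted p of at most 1.19e-10.

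Neighbouring KRAB genes near the end of the long arm of chromosome 19 included several of the deepest falls. ZNF587B (chromosome 19, 57819741 to 57846238) was at 53.6, 53.4 and 55.4 CPM in intact PBS and 11.7, 12.4 and 12.1 in intact AA libraries. In deficient cells it was at 51.5, 51.6 and 54.5 CPM under PBS and 10.7, 10.8 and 9.59 under AA, with log2 changes of -2.34 (SE 0.07) in deficient and -2.16 (SE 0.06) in intact cells. The groups did not overlap in either genotype. Its close paralogue ZNF417 was at 13.8, 12.7 and 11.0 CPM in intact PBS and 1.80, 2.45 and 1.86 in intact AA libraries. Under PBS and AA in deficient cells ZNF417 was at 9.25, 10.1 and 11.9 and at 1.39, 1.86 and 1.99 CPM, and its log2 changes were -2.58 (SE 0.17) and -2.61 (SE 0.17) in deficient and intact cells. ZNF749 had -1.72 (SE 0.15) and -2.25 (SE 0.15). All 6 changes had an edgeR adjusted p of at most 1.18e-09. Estimated counts divide reads among similar transcripts, so the split between ZNF587, ZNF587B and ZNF417 is uncertain.

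The promoter stretches of members with deep falls in this neighbourhood are shown with those of ZNF526, which also fell, and ZNF598, which rose in deficient cells. Each is the 160 bases upstream of the RefSeq start on GRCh38.p14, 5′ to 3′ on the gene's strand. Capitals mark 3 of the motifs searched on both strands, namely ACTACANNNCCCAG, CCGGAAG and CCAAT.
ZNF587 (chr19:57849699-57849858, plus strand): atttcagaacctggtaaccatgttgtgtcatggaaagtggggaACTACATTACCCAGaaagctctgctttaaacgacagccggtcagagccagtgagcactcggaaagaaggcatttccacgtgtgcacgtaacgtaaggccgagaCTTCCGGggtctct
ZNF587B (chr19:57830139-57830298, plus strand): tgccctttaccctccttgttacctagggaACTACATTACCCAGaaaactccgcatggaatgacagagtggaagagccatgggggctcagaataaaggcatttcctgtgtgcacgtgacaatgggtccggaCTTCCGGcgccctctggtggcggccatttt
ZNF749 (chr19:57435165-57435324, plus strand): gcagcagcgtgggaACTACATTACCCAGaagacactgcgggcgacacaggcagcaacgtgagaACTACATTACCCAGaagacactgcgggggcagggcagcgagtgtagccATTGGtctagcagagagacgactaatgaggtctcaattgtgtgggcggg
ZNF526 (chr19:42220152-42220311, plus strand): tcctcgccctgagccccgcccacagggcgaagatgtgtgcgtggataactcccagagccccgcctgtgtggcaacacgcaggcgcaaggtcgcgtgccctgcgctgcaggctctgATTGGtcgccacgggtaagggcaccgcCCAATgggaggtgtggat
ZNF598 (chr16:2009822-2009981, minus strand): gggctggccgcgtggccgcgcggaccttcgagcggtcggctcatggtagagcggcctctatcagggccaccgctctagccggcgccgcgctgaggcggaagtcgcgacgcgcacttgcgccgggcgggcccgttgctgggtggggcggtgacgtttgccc

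The first 3 stretches share the run GGGAACTACATTACCCAGAA. It stood in the 300-base windows of 6 of 27305 genes, among them the members ZNF586, ZNF587, ZNF587B and ZNF749. The run was read off promoters of members chosen for their falls, so their changes are no support for a relation to it. ZNF586 changed by -0.70 in deficient and -0.65 in intact cells, and ZNF417 was not matched to a window. The looser ACTACANNNCCCAG stood in 12.4% of the 225 members with a window and in 1.48% of the 27305 genes with one. Members with it had a median log2 change of -0.72 in deficient cells, and those without it -0.64. In intact cells these medians were -0.68 and -0.60. Its holders include ZNF587, ZNF587B and ZNF749, from which the run was read off, so part of this gap is built in. A stricter form, with a free position fixed, was held by 22 members, without ZNF586, ZNF587, ZNF587B and ZNF749. Its medians went the other way, with -0.46 with and -0.70 without it in deficient cells. They were -0.43 and -0.61 in intact cells.

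In all, 24 motifs were searched, each chosen with the changes known, and no test was made of any. For windows, all genes are the 27305 with a window, tested or not, and no share among expressed genes was taken. The members' windows were richer in G and C than those of all genes, with a median of 62.7% against 58.7%. They were also richer in CG dinucleotides, with a median of 23 against 14 per window. The part of base composition or of expression in the motif shares was not tested. CCGGAAG, the core that ETS factors recognise, stood in 44.9% of member windows and 12.2% of all, with medians of -0.70 with and -0.58 without it in deficient cells. TATAAA stood in 4.89% of member windows and 14.0% of all. Of the 10 motifs held by at least 20 members, CCAAT had the widest gap between medians, with -0.85 with and -0.40 without it in deficient cells and -0.73 and -0.42 in intact cells. CCAAT stood in 44.4% of member windows and 39.7% of all. A match is a description of letters and not a site of binding.

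Rises were fewer and smaller. ZNF362 was at 4.47, 3.57 and 4.04 CPM in intact PBS and 9.32, 7.23 and 8.95 in intact AA libraries. It was at 5.21, 4.13 and 4.49 CPM in deficient PBS and 9.69, 9.03 and 10.1 in deficient AA libraries. It was higher under AA in every library of both genotypes, by 1.08 (SE 0.14) and 1.06 (SE 0.14) (edgeR adjusted p = 8.80e-07 and 5.87e-07). ZNF580 rose by 0.79 (SE 0.12) in deficient cells, and ZNF358, ZNF367, ZNF185 and ZNF618 rose in intact cells by 0.92, 0.81, 0.68 and 0.66 on the log2 scale. ZNF185 is an actin-associated LIM protein in which no finger pattern was found.

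The AA effect differed between genotypes for 45 members in the upward direction (deficient minus intact) and 52 in the downward direction. Of all tested genes 44.6% were called, 21.6% up and 23% down, against 17.2% and 19.8% of the members. Of the 10297 genes with a mean count of at least 100, as the members have, 25.2% were called up and 26.8% down. On FPKM values 24 members were called down with either pseudocount (0.1 or 1). The median difference was -0.07 over members and -0.01 over all tested genes.

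ZNF598 (chromosome 16, 1997654 to 2009823), a ubiquitin ligase that marks ribosomal proteins at collided ribosomes, had the largest positive difference. Its levels were 50.7, 53.3 and 52.3 CPM in intact PBS and 50.9, 47.5 and 46.2 in intact AA libraries. They were 54.5, 52.3 and 53.5 CPM in deficient PBS and 101, 106 and 107 in deficient AA libraries. The deficient AA libraries stood far above the other 9, which lay close together. The log2 change was 0.97 (SE 0.05) in deficient cells (edgeR adjusted p = 3.25e-14), and the difference from intact cells was 1.08 (SE 0.07) (edgeR adjusted p = 3.13e-11). In intact cells the change was -0.11 (SE 0.05), with an edgeR adjusted p of 0.0459. That call was lost without intact AA replicate 2 or 3 or intact PBS replicate 2 or 3 (adjusted p = 0.107, 0.178, 0.135 and 0.0895), and the sign turned on FPKM values (0.03).

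ZNF354A, a KRAB gene on chromosome 5, was at 17.4, 20.8 and 20.7 CPM in deficient PBS and 33.4, 34.9 and 36.1 in deficient AA libraries. In intact cells it was at 19.6, 18.5 and 20.1 CPM under PBS and 20.2, 19.7 and 17.6 under AA, which overlapped. The difference in AA effect was 0.84 (SE 0.11) (edgeR adjusted p = 2.25e-06). ZNF76, ZNF260, ZNF558 and ZNF239 had differences of 0.73, 0.77, 0.76 and 0.74. They did not share 1 pattern: ZNF76 rose in both genotypes, by 1.02 in deficient and 0.29 in intact cells, while ZNF260 fell in both, with -0.52 and -1.29.

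ZNF143 (chromosome 11, 9460319 to 9528524), a promoter-binding activator and a close paralogue of ZNF76, went the other way. Its libraries were at 32.7, 34.4 and 31.3 CPM in intact PBS and 52.5, 55.0 and 46.8 in intact AA, without overlap. In deficient cells they were at 31.6, 36.0 and 34.3 CPM under PBS and 30.6, 31.4 and 31.0 under AA. The log2 change was 0.65 (SE 0.06) in intact and -0.13 (SE 0.07) in deficient cells (edgeR adjusted p = 1.28e-08 and 0.0835), and the difference was -0.78 (SE 0.09) (edgeR adjusted p = 6.86e-07). Without deficient PBS replicate 1 the fall in deficient cells was called (adjusted p = 0.0311).

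ZNF488 (chromosome 10, 47365496 to 47384273) had the largest negative difference, -1.27 (SE 0.21) (edgeR adjusted p = 3.17e-05). It was at 6.74, 5.59 and 5.84 CPM in deficient PBS and 3.36, 3.28 and 2.78 in deficient AA libraries. In intact cells it was at 7.05, 5.57 and 7.08 CPM under PBS and 7.74, 8.23 and 8.69 under AA, so the AA libraries were above the PBS libraries there and under them in deficient cells. ZNF697, ZNF432 and ZNF672 fell in both genotypes, with differences of -1.12, -0.85 and -0.79. The difference of ZNF432 missed the threshold on FPKM values with a pseudocount of 0.1 (limma adjusted p = 0.051).

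**Figure D3:**
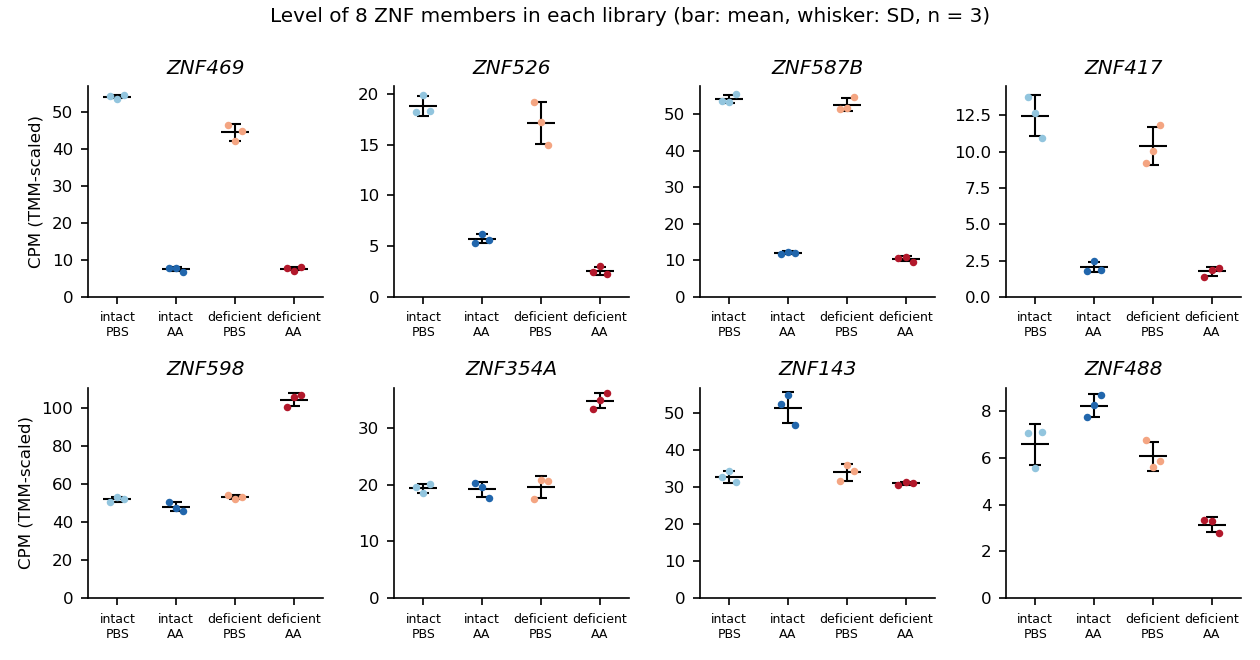
Each panel shows 1 member, with TMM-scaled CPM on the y axis from 0 and the 4 groups on the x axis. Points are the 3 libraries of a group, the bar their mean and the whisker the SD. ZNF469, ZNF526, ZNF587B and ZNF417 are low in all AA libraries, ZNF598 and ZNF354A are high in deficient AA, ZNF143 is high in intact AA and ZNF488 is low in deficient AA libraries.

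Under PBS the genotypes hardly differed. Of the members 0 were called higher and 1 lower in deficient cells (0.055% and 0.22% of all tested genes, 0.275% in all), 17 had an unadjusted edgeR p under 0.05, and DESeq2 also called 0 higher and 1 lower. The called member was ZNF469, with -0.28 (SE 0.06) and an edgeR adjusted p of 0.0398. That call was lost when any of the 6 PBS libraries was left out (adjusted p 0.093 to 0.205) and with the replicate number as a block (0.0562). Under AA 67 members (25.6%) were higher and 75 (28.6%) lower in deficient than in intact cells, against 28.7% and 30.3% of all tested genes (59% in all). Of the 10297 genes with a mean count of at least 100, 32.4% were higher and 33.5% lower, so neither member share exceeded these backgrounds. The number of members lower was 45 and 40 on FPKM values with a pseudocount of 0.1 and 1, and 49 at an adjusted p under 0.01. The largest of these were 1.12 for ZNF598, 0.87 for ZNF239 and 0.86 for ZNF354A, and -1.39 for ZNF488, -1.16 for ZNF526 and -1.10 for ZNF697. These values share the AA libraries with the AA effects above. Further down the order stood ZNF430 with -0.75 and ZNF383 with 0.77.

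By role, the 11 members with work in RNA, ribosome or ubiquitin biology did not share a direction. In deficient cells 3 rose and 4 fell (37% and 37.4% of all tested genes), and in intact cells 2 rose and 4 fell (34.5% and 35.2%), with medians of -0.07 and -0.05. The number that fell is near the share over all genes in both genotypes. ZNF593, which takes part in maturing the large ribosomal subunit, rose in deficient cells by 0.45 (SE 0.08) and had -0.05 (SE 0.08) in intact cells. ZNF622, also a factor of large subunit maturation, was at 150.1, 150.4 and 144 CPM in deficient PBS and 139, 145 and 147 in deficient AA libraries, groups that overlapped (edgeR adjusted p = 0.255). ZNF207, a spindle and kinetochore factor, fell in both genotypes, with log2 changes of -0.55 in deficient and -0.43 in intact cells. ZNF106, an RNA-binding protein, fell likewise, with -0.89 and -1.06. ZNF385A rose in intact cells, by 0.59 (SE 0.08), with a called difference of -0.53.

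Among the 21 members that are DNA-binding or chromatin factors without a KRAB domain, of 27 on the list, 6 rose and 10 fell in deficient cells and 6 rose and 13 fell in intact cells, against the same shares of all genes. Their medians were -0.13 and -0.15. ZNF281, a regulator of stemness genes, had log2 changes of -1.10 and -1.37 in deficient and intact cells, and the SCAN protein ZNF24 had -0.70 and -0.74, all called. ZNF217, an amplified oncogene in breast cancer, rose by 0.41 and 0.44. ZNF410, an activator of CHD4, was at 46.9, 44.2 and 46.3 CPM in deficient PBS and 65.6, 67.3 and 62.9 in deficient AA libraries, with a difference in AA effect of 0.60 (SE 0.08) (edgeR adjusted p = 1.75e-06). Beside ZNF598 in intact cells, the counts of both lists include calls lost without at least 1 library and under some other settings. They are ZNF451 and ZNF148 in deficient cells, ZNF395, ZNF384 and ZNF131 in intact cells and ZNF503 in both. The highest adjusted p over all settings that lost the call (edgeR, DESeq2 or limma) was 0.297 and 0.254 in deficient cells. It was 0.454, 0.174 and 0.183 in intact cells, and 0.118 and 0.121 for ZNF503. On FPKM values the calls of ZNF638 and ZNF644 in deficient cells (0.343 and 0.154) and of ZNF148 and ZNF518A in intact cells (0.838 and 0.0577) were lost as well.

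Of 5 repressors of retroelements or guards of imprints, 3 were members. ZNF91, which represses SVA elements, was at 21.3, 21.1 and 20.9 CPM in deficient PBS and 4.80, 5.09 and 4.09 in deficient AA libraries. In intact cells it was at 20.2, 21.9 and 21.7 CPM under PBS and 7.25, 7.39 and 7.14 under AA. It thus fell in both genotypes, with log2 changes of -2.18 and -1.55, and ZNF445, which keeps imprints, fell with -1.55 and -1.13. ZNF274, which brings SETDB1 to ZNF genes, rose in deficient cells by 0.34 (SE 0.08) and had -0.01 (SE 0.08) in intact cells. The differences of ZNF91 and ZNF445 between genotypes, -0.63 and -0.41, were not called on FPKM values.

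Of 23 tested corepressor and heterochromatin genes with which KRAB proteins work, 3 rose and 14 fell in deficient cells (37% and 37.4% of all tested genes), and 7 rose and 12 fell in intact cells (34.5% and 35.2%), with medians of -0.22 and -0.12. The difference was called up for 1 and down for 13 of them (21.6% and 23% of all tested genes). TRIM28 was at 178 ± 12.3 FPKM (mean ± SD, n = 3) in deficient PBS and 134 ± 5.65 in deficient AA libraries, and at 189 ± 0.509 and 196 ± 3.23 FPKM in intact PBS and AA libraries. Its log2 change was -0.48 (SE 0.04) in deficient and 0.06 (SE 0.03) in intact cells, with a difference of -0.54 (SE 0.05) (edgeR adjusted p = 1.50e-08). MPHOSPH8, a subunit of the HUSH silencing complex, had a difference of -0.58 (SE 0.07), and SETDB1 one of -0.03 (SE 0.08) that was not called. SUV39H1, an H3K9 methyltransferase, fell, with -0.88 in deficient and -0.49 in intact cells. CBX1, CBX3 and CBX5 were called up in both genotypes. Their log2 changes were 0.26, 0.11 and 0.26 in deficient cells and 0.19, 0.18 and 0.44 in intact cells. PPHLN1 rose in intact cells by 0.29 and had -0.02 in deficient cells, which was not called.

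The members of highest level per transcript length were ZNF207, ZNF131, ZNF622, ZNF638, ZNF664 and ZNF655. ZNF207 had 149.7 ± 2.93 FPKM in intact PBS libraries, above ZNF131 with 95.6 ± 4.80 and ZNF622 with 88.8 ± 3.73 FPKM. The other 3 lay between 43.7 ± 1.98 FPKM for ZNF638 and 51.3 ± 0.18 for ZNF664 there, and ZNF655, at 47.1 ± 4.17, was not apart from ZNF638 or ZNF664 by more than their spread. The log2 changes of these 6 members ran from -0.55 for ZNF207 to 0.05 for ZNF131 in deficient cells. In intact cells they ran from -0.59 for ZNF664 to 0.07 for ZNF638.

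Just inside the threshold were ZNF234, ZNF774 and ZNF697, with mean counts of 100.75, 101.75 and 102.67 and log2 changes in deficient cells of -2.37, -0.87 and -2.24. Just outside were ZNF311, ZNF485 and ZNF699, with mean counts of 99.58, 99.08 and 98.33 and changes of 0.75, -0.25 and -0.49.

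The members' proteins were read from GENCODE release 29 coding models, which 260 members have, and C2H2 finger patterns were counted in each. They held from 0 to 35 fingers with a median of 10. The fall under AA was larger in members with more fingers. The median log2 change in deficient cells was 0.47 with 0 fingers (n = 5), -0.13 with 1 to 4 (n = 38), -0.42 with 5 to 8 (n = 63), -0.57 with 9 to 12 (n = 74), -1.01 with 13 to 16 (n = 44) and -1.04 with 17 or more (n = 36). In intact cells the medians were 0.32, -0.11, -0.38, -0.60, -0.86 and -0.69 in the same order. Spearman's correlation of change with finger number was -0.45 in deficient and -0.40 in intact cells over 260 members, as a description. Genes of other names with 9 or more fingers had medians of -0.33 and -0.26 (n = 47).

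**Figure D4:**
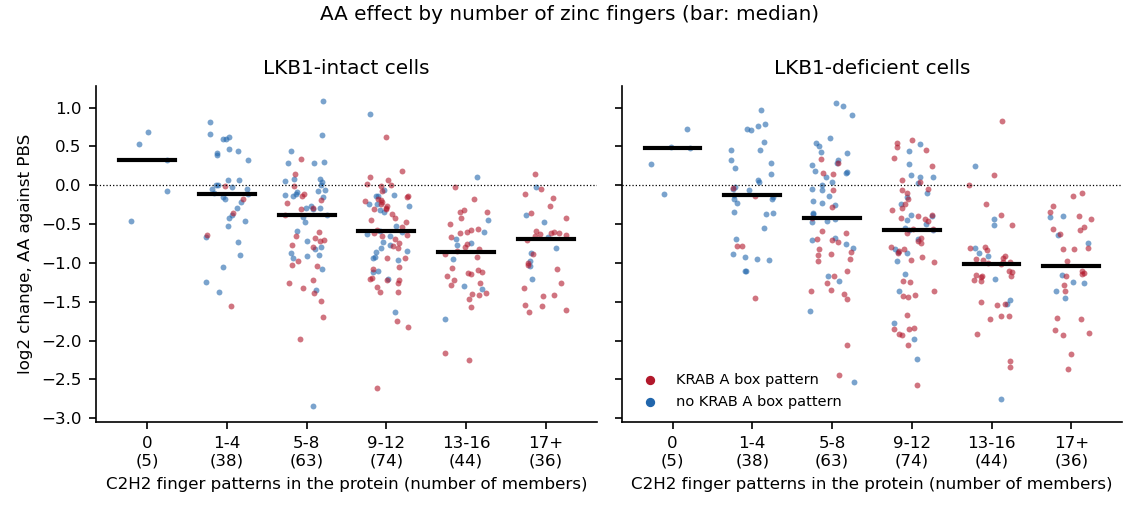
Log2 change under AA against PBS (y axis) for 260 members grouped by the number of C2H2 finger patterns in the protein (x axis), in intact (left) and deficient cells (right). Red points have a KRAB A box pattern, blue points none, and bars are medians, which go from 0.47 at 0 fingers to -1.04 at 17 or more in deficient cells.

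A KRAB A box pattern was found in 140 members. Their median log2 change was -0.87 in deficient and -0.67 in intact cells, and 116 and 111 of them were called down. Of all tested genes 37.4% and 35.2% were called down. The 120 members without it had medians of -0.25 and -0.33, with 68 and 74 called down. The 8 tested genes of other names with a KRAB A box pattern and at least 3 fingers had medians of -0.22 and -0.30, with 4 called down in each genotype. This pattern was widened after the changes had been seen, because known KRAB genes had been missed. The narrower first pattern, with 129 members, gave -0.87 and -0.66 with it and -0.36 and -0.38 without. Divergent boxes can still be missed.

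Fingers and KRAB overlap, and the lowest class changed least. Members with no KRAB pattern and under 9 fingers had medians of -0.05 in deficient and -0.12 in intact cells (n = 74). With no KRAB pattern but 9 or more fingers they were -0.67 and -0.71 (n = 46), with KRAB and under 9 fingers -0.80 and -0.66 (n = 32), and with both -0.93 and -0.68 (n = 108). The 14 members with a SCAN pattern had medians of -0.45 and -0.54.

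Transcript length moved with the change in all genes, so members were set beside other genes in 5 classes of length with equal numbers. Members had longer transcripts than the other tested genes, with medians of 3911 and 3136 bases, and lower GC content, with 44.6% and 49.6%. In the longest class the median log2 change in deficient cells was -0.86 for members (n = 65) and -0.29 for genes without a ZNF symbol (n = 2435). In the next class it was -0.82 and -0.13, in the middle class -0.52 and -0.02, in the one under it -0.26 and 0.16, and in the shortest 0.14 (n = 11) and 0.34. Members thus lay under other genes in each class. After the length trend of all tested genes was removed, the median of members was -0.54 in deficient and -0.47 in intact cells. In the class of highest GC content members had a median of only -0.06 in deficient and -0.14 in intact cells (n = 41), and other genes there had 0.15 and 0.12.

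Chromosome 19 carried 103 members, with medians of -0.86 in deficient and -0.68 in intact cells, against -0.43 and -0.46 for the 159 members elsewhere. For the counts that follow, the share of all tested genes called down was 37.4% in deficient and 35.2% in intact cells. Neighbourhoods were runs of at least 5 members with gaps of at most 1000000 bases, on GRCh38 positions. In the largest (chr19:51571298-53580269), from ZNF175 to ZNF331, 25 of 26 members fell in deficient and 24 in intact cells, with 0 rises, and 24 have a KRAB pattern. The 4 other tested genes within it had medians of -1.23 and -0.70, against -0.96 and -0.63 for the members. In the neighbourhood from ZNF264 to ZNF446 (chr19:57191500-58481230), which holds ZNF587B and ZNF417, 18 of 22 members fell in each genotype. There the 5 other tested genes had medians of 0.38 and 0.05, against -0.93 and -0.94 for the members.

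On chromosome 16 (chr16:30378106-31917357) the 10 members had medians of -1.10 in deficient and -0.83 in intact cells. In each genotype 7 fell (37.4% and 35.2% of all tested genes). The 34 other tested genes there had medians of 0.29 and 0.14. The neighbourhood from ZNF628 to ZNF444 on chromosome 19, where 0 of 7 members has a KRAB pattern, had -0.34 and -0.07. These rows share sequence and in places overlap, and strand use in counting is not given in the sources used here, so overlapping and antisense transcripts cannot be told apart.

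**Figure D5:**
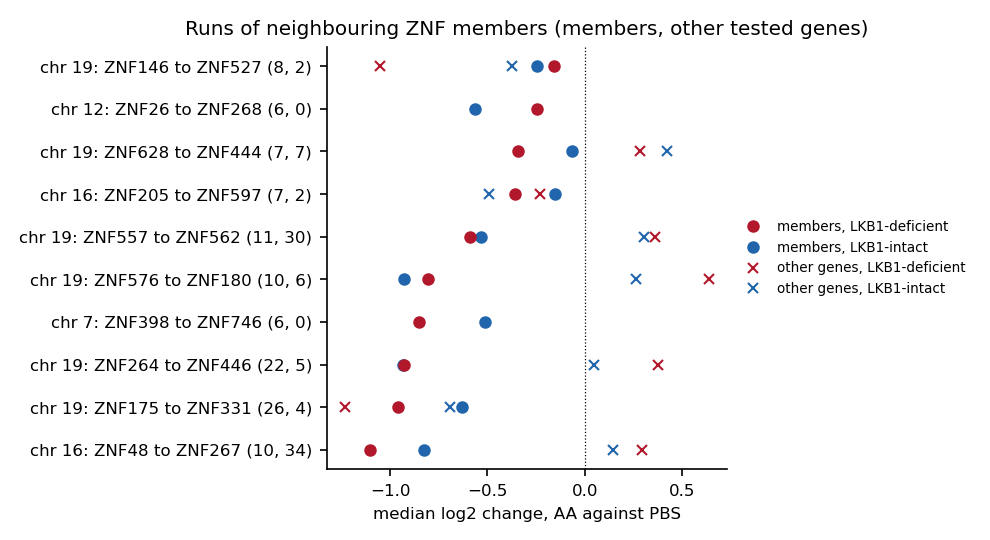
Median log2 change under AA (x axis) of the members (circles) and of the other tested genes (crosses) in each run of neighbouring members (rows, with the number of members and of other genes in brackets), in deficient (red) and intact cells (blue). All member medians lie under 0, from -1.10 to -0.16 in deficient cells, while in 5 runs the other genes lie above 0 in both genotypes.

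Other C2H2 families gave a comparison. Of all tested genes 37% rose and 37.4% fell in deficient cells, and 34.5% rose and 35.2% fell in intact cells. Of 38 tested ZBTB genes, which pair fingers with a BTB domain, 5 rose and 24 fell in deficient cells and 5 rose and 27 fell in intact cells, with medians of -0.57 and -0.55. Of 13 tested KLF genes, which carry a short array of fingers, 7 rose and 3 fell in deficient and 5 rose and 5 fell in intact cells, with medians of 0.31 and 0.13. The KLF counts in intact cells were near the shares over all tested genes. Of 165 tested genes of other names with at least 3 finger patterns, 86 fell in deficient and 91 in intact cells, with medians of -0.27 and -0.31.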

How the data were processed

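RNA sequencing gave 12 libraries, which fall into 4 groups of 3 by their titles. The authors deposited a table of estimated counts, which need not be whole, and a table of FPKM values, scaled for length and depth. Per the submitters' processing notes the tools were RSEM, StringTie 1.3.1, HISAT2 2.1.0, Bowtie2 2.2.8 and fastp 0.18.0. The build, any use of strand and the step each tool served were not given in the sources used here. Library totals ran from 16055534 to 20306129.

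Counts were rounded, and filterByExpr by group at minimum count 10 kept 12718 of 20323 genes. edgeR 4.0.16 in R 4.3.3 fitted all libraries in 1 quasi-likelihood model with TMM factors and no covariate. P-values of each of 5 comparisons were adjusted by Benjamini-Hochberg over all tested genes. The SE was taken as log2 change divided by the root of the F statistic, and CPM values use the TMM factors. These steps were tested on simulated counts. Libraries of the same group differed by more than sampling noise, so none was taken as a duplicate deposit of another.

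Positions, transcripts and proteins are from GENCODE release 29 (GRCh38), matched by Ensembl identifier for 262 members, and promoters are from RefSeq (GRCh38.p14), matched by symbol for 225. They were not matched to the authors' build. Members and role lists were chosen with earlier results of these data known. Finger classes, the KRAB pattern, the neighbourhood gap, the length trend and the motifs were also settled after the data had been seen. Named members are, in each comparison, the 6 called members that rose and the 6 that fell most without overlap of the groups (not asked of the difference), the 6 of highest mean FPKM, those next to the threshold and members of role lists. Members named outside this rule, such as ZNF587 and ZNF586 for their promoters, were chosen after their values were seen. Alternatives were DESeq2 1.42.0, limma 3.58.1 on FPKM values (log2, pseudocounts 1 and 0.1), other factors, filters and thresholds, a replicate block, fits to only the libraries compared, and fits without each library.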

Additional observations from a re-analysis of the deposited data

Results flagged for a closer look

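For 33 named members the AA effect differed between deficient and intact cells by edgeR's test of the difference itself. Members were named partly for large called differences, so this number says nothing of how common they are. Over all 262 members 17.2% were called up and 19.8% down, against 21.6% and 23% of all tested genes. Of genes with a mean count of at least 100, 25.2% were called up and 26.8% down. The values are the log2 change in deficient minus that in intact cells. The difference was positive, in order of size, for ZNF598 1.08, ZNF354A 0.84, ZNF260 0.77, ZNF558 0.76, ZNF239 0.74, ZNF76 0.73, ZNF383 0.71, ZNF32 0.62, ZNF410 0.60, ZNF593 0.50, ZNF655 0.42, ZNF274 0.34, ZNF451 0.34, ZNF469 0.31, ZNF281 0.27, ZNF664 0.21, ZNF106 0.17 and ZNF131 0.17. It was negative for ZNF488 -1.27, ZNF697 -1.12, ZNF526 -1.03, ZNF432 -0.85, ZNF672 -0.79, ZNF143 -0.78, ZNF234 -0.74, ZNF430 -0.65, ZNF91 -0.63, ZNF385A -0.53, ZNF367 -0.52, ZNF358 -0.48, ZNF445 -0.41, ZNF638 -0.21 and ZNF207 -0.13. The calls of ZNF106, ZNF131, ZNF234, ZNF274, ZNF281, ZNF358 and ZNF469 were lost without at least 1 library. Those of ZNF207, ZNF430, ZNF432, ZNF445, ZNF451 and ZNF91 were lost on FPKM values with at least 1 of the pseudocounts, as were those of ZNF106, ZNF131, ZNF234, ZNF281, ZNF358 and ZNF469. ZNF234 lost its call when any of 9 of the 12 libraries was left out.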

How the results depend on the processing

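In all alternatives run, the members' median change under AA stayed under 0 in both genotypes. In deficient cells it was -0.51 and -0.42 on FPKM values with a pseudocount of 0.1 and 1, -0.70 with a member threshold of 50 and -0.54 with the length trend removed (added after seeing the data), and a threshold of 200 left 121 members called down of a smaller set. In intact cells it was -0.52 and -0.41 on FPKM, -0.53 with upper quartile factors, -0.53 with a threshold of 200 and -0.47 without the length trend, and 13 members of that smaller set were called up at a threshold of 200. Counts at a threshold of 200 are of fewer members, so they do not compare with those over all 262. No share of all tested genes is given beside the counts in this paragraph. The difference was called down for 24 members with either FPKM pseudocount. For the genotypes under AA, 45 and 40 members were called lower on FPKM and 49 at an adjusted p under 0.01, and the median was -0.015 and -0.013 on FPKM, -0.020 by library size only and -0.015 without the length trend. The single genotype call under PBS became 0 on FPKM with either pseudocount, with the replicate block and at an adjusted p under 0.01. The FPKM change of ZNF598 in intact cells was 0.028 and 0.026. Leaving out 1 library gave 176 to 180 falls and 32 to 37 rises in deficient cells, 180 to 184 and 17 to 23 in intact cells, 49 to 57 and 41 to 50 for the difference, 55 to 75 and 56 to 66 for the genotypes under AA and 0 to 0 under PBS. The cause was not tested. Of values for named members, 2797 were counted as the same, 146 lost and 18 gained a call, and 2 were counted as reversed. The first class does not mean that every sign was kept. Several values near 0 changed sign when 1 library was left out, such as ZNF274 in intact cells (-0.08 to 0.05), which was not called. Same-numbered libraries had correlations of -0.09 to 0.06, and libraries of unlike number -0.05 to 0.09. No pairing by number was seen, but 3 libraries per group are too few to exclude one. The replicate block moved no count of members by over 1.5 times except the PBS call. Depth limits members near the threshold most.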
